A study of Mus musculus with 50 samples.

Results

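The genes described here repair broken or crosslinked DNA. They are 32 genes of homologous recombination, the Fanconi pathway, end joining and the kinases that answer to breaks, taken from a list of names and read on the array as the one-gene probe set with the highest mean. Of the 32 genes, 28 had such a probe set and all 28 were among the 18045 tested genes of 22180 on the array. Rad54b and Fanca lay only on probe sets that the platform annotation shares with other genes, and Xrcc2 and Rbbp8 were not matched to a probe set, so these 4 are not analysed here. RNA was measured in 50 biopsies of spontaneous mammary tumours, each on 1 Affymetrix array, and all 50 form 1 group. The hosts were female mice bred by crossing C57BL/6J with FVB/NJ and mating the offspring to FVB/NJ animals with the MMTV-Erbb2 transgene, so each inherited its own mixture of segments. Biopsies were taken before treatment, and the labels name doxorubicin in one place and docetaxel in another. The transgene is driven by a viral promoter, that of mouse mammary tumour virus, mainly in mammary epithelium. The tumours are therefore presumed to have been started by the same receptor kinase, which was not tested for each tumour. The labels name no tumour of another origin and no normal gland. The ages of the mice are not given in the sources used here.

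Homologous recombination copies the sister chromatid to mend a double-strand break and is therefore used after DNA replication. Nucleases first trim the broken ends, Brca1 and Brca2 then prepare the strand that searches for its copy, and motor proteins and helicases carry the exchange through. The Fanconi proteins recognise crosslinks between the DNA strands and hand the resulting break to recombination. Classical end joining seals breaks in any cell cycle phase, with the Ku proteins holding the ends and a ligase complex closing them. The kinases Atm and Atr sense breaks and stalled forks and pass the signal on to Chek2 and Chek1. Many recombination genes are transcribed as cells enter S phase, through E2F factors, so their RNA is known to track how many cells of a tissue divide.

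The promoters of 6 genes are shown because they stand at both ends of the relation to proliferation described below. Chek1, Brca1 and Bard1 had the strongest relation to the proliferation score, and Fancc, Fancg and Lig4 the weakest among genes with a promoter entry. Each run holds the 250 bases before the annotated start in RefSeq, build GRCm38.p6, and all 6 genes lie on the minus strand. The intervals are chr9:36726659-36726908 for Chek1, chr11:101551956-101552205 for Brca1, chr1:71102973-71103222 for Bard1, chr13:63431746-63431995 for Fancc, chr4:43010302-43010551 for Fancg and chr8:9977681-9977930 for Lig4, for which the first of the listed starts was taken. Capitals mark matches, on either strand, to 3 sets of letters. The E2F-like set holds TTCCCGC and variants with the middle letters changed, namely TTGGCGC along with the sequence TTCGCGC, the cell cycle homology set holds TTTGAA together with the form TTCGAA, and the last is the CCAAT box. In these 6 promoters no motif overlapped another.
Chek1: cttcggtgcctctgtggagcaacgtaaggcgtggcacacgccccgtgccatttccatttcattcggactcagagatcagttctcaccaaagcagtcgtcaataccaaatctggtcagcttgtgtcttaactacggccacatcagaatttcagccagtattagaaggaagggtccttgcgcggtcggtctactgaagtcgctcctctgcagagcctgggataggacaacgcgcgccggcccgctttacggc
Brca1: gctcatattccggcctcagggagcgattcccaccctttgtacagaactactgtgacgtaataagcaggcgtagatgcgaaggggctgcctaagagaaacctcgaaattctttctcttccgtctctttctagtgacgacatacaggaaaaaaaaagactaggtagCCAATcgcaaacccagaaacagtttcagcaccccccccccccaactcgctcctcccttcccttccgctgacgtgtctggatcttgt
Bard1: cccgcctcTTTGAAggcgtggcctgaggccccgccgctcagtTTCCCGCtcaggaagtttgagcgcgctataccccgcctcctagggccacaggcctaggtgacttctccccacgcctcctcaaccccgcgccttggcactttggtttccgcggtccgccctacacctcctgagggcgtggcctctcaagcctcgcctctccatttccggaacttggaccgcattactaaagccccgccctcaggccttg
Fancc: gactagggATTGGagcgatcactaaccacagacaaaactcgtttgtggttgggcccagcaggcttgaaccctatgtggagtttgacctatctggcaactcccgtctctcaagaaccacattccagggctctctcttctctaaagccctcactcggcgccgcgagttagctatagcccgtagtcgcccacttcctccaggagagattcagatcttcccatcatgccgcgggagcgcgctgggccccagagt
Fancg: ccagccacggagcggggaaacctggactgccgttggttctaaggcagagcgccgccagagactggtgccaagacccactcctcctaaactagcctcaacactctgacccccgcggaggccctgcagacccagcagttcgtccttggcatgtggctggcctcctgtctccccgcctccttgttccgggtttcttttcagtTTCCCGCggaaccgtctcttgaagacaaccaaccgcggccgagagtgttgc
Lig4: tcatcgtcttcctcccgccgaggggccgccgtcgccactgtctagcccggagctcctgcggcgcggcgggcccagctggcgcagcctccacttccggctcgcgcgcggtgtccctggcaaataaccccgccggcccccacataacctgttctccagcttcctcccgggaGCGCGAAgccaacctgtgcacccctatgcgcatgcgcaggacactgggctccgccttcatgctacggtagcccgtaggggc
An E2F-like match was present in the promoters of Bard1, Fancg and Lig4, so it occurred at both ends. A CCAAT box was present in those of Brca1 and Fancc, and a cell cycle homology match in that of Bard1. Chek1 held none of these letters in this window. Of the 27025 promoters in the table, 6.8% held an E2F-like match, 17.4% a cell cycle homology match and 34.5% a CCAAT box. Of the 23 measured repair genes with an entry, 8 (34.8%) held an E2F-like match. That was 5 of the 14 genes that rose with proliferation in every fit, and 3 of the 6 genes that did not pass. A CCAAT box was present in 8 of those 14 and in 2 of those 6. A match is a stretch of letters and not a measured binding site.

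The deposited values are on the log2 scale and lay between 2.53 and 13.65. The median mean correlation of an array with the others was 0.978, and 3 arrays were lower, mid79 at 0.916, mid60 at 0.931 and mid100 at 0.954. Of the 5 epithelial markers, Krt8, Krt18, Epcam and Cdh1 averaged between 9.94 and 11.42, while Krt19 averaged 4.82, close to the lower end of the scale. Erbb2 averaged 11.58 ± 0.54 (SD, n = 50). In mid79 the epithelial and Erbb2 signal was low, with Cdh1 at 6.46 against a median of 10.30, Epcam at 8.61 against 11.51 and Erbb2 at 9.25 against 11.71. Erbb2 was lowest in mid60, at 9.02. The 3 arrays also stood apart in markers of other tissues. The mean of 4 adipocyte markers was 11.37 in mid79 against a median tumour at 5.44, the mean of 5 skin markers was 8.91 in mid60 against 4.90, and the mean of 5 skeletal muscle markers was 10.86 in mid100 against 5.15. Muscle markers were higher still in mid71, at 11.04, an array of ordinary correlation (0.974) that was kept. Where leaving out mid79, mid60 and mid100 ended a call on a repair gene or moved its called slope by over 1.5 times, both values are given. In a biopsy, fewer cells of a type and less RNA per cell cannot be told apart.

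The question put to the repair genes was which of them follow proliferation from tumour to tumour and which do not. A proliferation score was made for each tumour as the mean of 19 replication genes and 19 mitosis genes, none of them repair genes of the list, and was standardised over the tumours. A slope is the difference in log2 expression for 1 SD of that score, from limma with Benjamini-Hochberg adjustment over all tested genes. The score was lowest in mid79 at -3.69 and in mid54 at -2.00, and highest in mid105 at 2.01. Of the 28 repair genes 19 rose with the score and 0 fell, and none had an unadjusted p under 0.05 on the falling side. Over all genes outside the score, 11.1% were called higher and 7.71% lower. The median slope of the 28 was 0.16, against 0.0062 for the other tested genes.

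The rise was then required to pass in 3 fits, over all 50 tumours, without mid79 and mid54, and without the 3 arrays of low correlation. It did so for 16 genes, while 3.71% of all genes rose in every one of these fits. Palb2, Fancl and Atm passed over all 50 tumours but not in every fit, and 9 genes did not pass over all 50. By role, 8 of 9 recombination genes rose in every fit, as did 1 of 3 genes of end resection, 2 of 4 checkpoint kinases, 4 of 7 Fanconi genes and 1 of 5 end joining genes. The cell type markers moved with the score as well. Of the markers tested, 4 of 5 epithelial ones rose with it, and 3 of 8 fibroblast, 2 of 5 endothelial, 2 of 6 T and NK cell, 1 of 5 macrophage and 3 of 4 adipocyte markers fell. Without the 3 arrays none of these 4 rising and 11 falling markers passed, as for Cdh1 (0.32 over all 50 tumours, 0.03 without them) and Adipoq (-0.49 and -0.0044). In that fit 17 repair genes rose, where 5.24% of all genes were called higher. Scores for fibroblasts, endothelium, macrophages and T and NK cells were then added to the fit over all 50 tumours. With these scores 16 of the 19 repair genes passed and 0 fell, and Xrcc3, Atm and Fancl did not pass. Of the 16 genes that rose in every fit, 15 passed with these scores. No epithelial score was in that fit, and the share of all genes called in it is not given here.

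**Figure D1:**
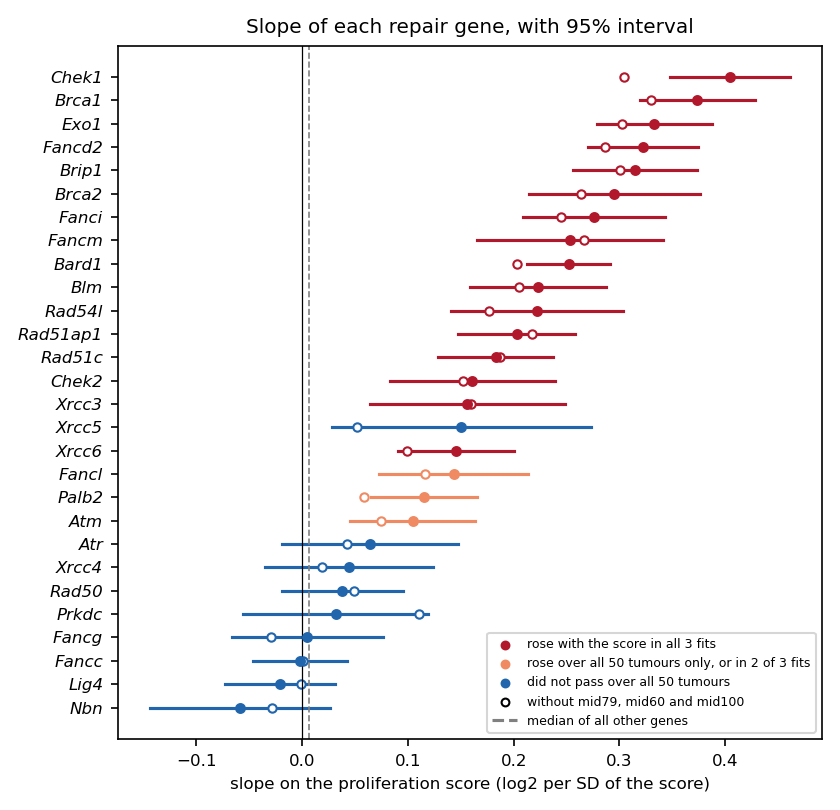
Slope of each of the 28 repair genes on the proliferation score (x axis, log2 per SD of the score), with its 95% interval as a line. Filled points use all 50 tumours and open points leave out mid79, mid60 and mid100. Chek1 and Brca1 lie at the top with slopes of 0.40 and 0.37, Nbn at the bottom at -0.06, and the dashed line is the median of all other genes.

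Recombination genes made up much of the upper end. Brca1, the tumour suppressor that steers breaks towards recombination, had a lowest value of 4.83 in mid79, a median of 6.06 and a highest value of 7.17 in mid47. The values climb along the score with little scatter, and the score held 80.5% of the variance of Brca1. Its slope was 0.37 (95% interval 0.32 to 0.43, adjusted p = 2.58e-16), and 0.33 without the 3 arrays. Bard1, the partner of Brca1 in a ubiquitin ligase, ranged from 4.40 in mid79 over a median of 5.49 to 6.11 in mid105. Its slope was 0.25 (adjusted p = 2.33e-15), or 0.20 without the 3 arrays, and 79.2% of its variance lay along the score. Mid79 is far below the other tumours for both genes, since the next lowest values were 5.55 for Brca1 and 4.76 for Bard1.

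Brca2, a tumour suppressor that acts after Brca1 on single-stranded DNA, ranged from 5.61 in mid79 over a median of 6.50 to 7.55 in mid7. It had a slope of 0.29 (95% interval 0.21 to 0.38, adjusted p = 1.56e-07), with 52.3% of its variance along the score. Palb2, which ties Brca1 to Brca2, was the steadiest gene of this group, with 4.82 in mid79, a median of 5.64 and 6.00 in mid145. Its slope of 0.12 (adjusted p = 0.000744) became 0.04 without mid79 and mid54 (adjusted p = 0.312) and 0.06 without the 3 arrays (adjusted p = 0.123), and leaving out mid79 alone ended the call (adjusted p = 0.0944). On ranks over all 50 tumours Palb2 passed (adjusted p = 0.0182), and with array weights it did not (0.07, adjusted p = 0.0736). The call on Palb2 from log2 values thus depended on mid79, while that on Brca2 held without any 1 of the 50 tumours.

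Genes of strand invasion and of later steps rose as well. Rad51ap1, which aids strand invasion, ranged from 5.35 in mid54 over 5.88 to 6.81 in mid47, with a slope of 0.20 (adjusted p = 1.41e-07). Rad51c, which acts in complexes that promote strand exchange, ranged from 5.83 in mid54 over 6.27 to 7.14 in mid47, with a slope of 0.18 (adjusted p = 1.14e-06). Blm, the helicase that resolves recombination intermediates, ranged from 6.15 in mid79 over 6.81 to 7.56 in mid105, with a slope of 0.22 (adjusted p = 5.40e-07). These 3 had between 49.3% and 53.4% of their variance along the score, less than Brca1 and Bard1. Rad54l, a motor protein of strand invasion, ranged from 4.45 in mid79 over 5.39 to 6.21 in mid60 and had a slope of 0.22 (adjusted p = 6.38e-05). Xrcc3, a partner of Rad51c in one of those complexes, ranged from 6.30 in mid60 over 7.07 to 8.18 in mid85. Of the 16 genes that rose in every fit it had the least of its variance along the score, 18.9%, with a slope of 0.16 (adjusted p = 0.0120). That call ended without mid85 (adjusted p = 0.0523) and with the 4 cell type scores in the fit (0.11, adjusted p = 0.136).

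**Figure D2:**
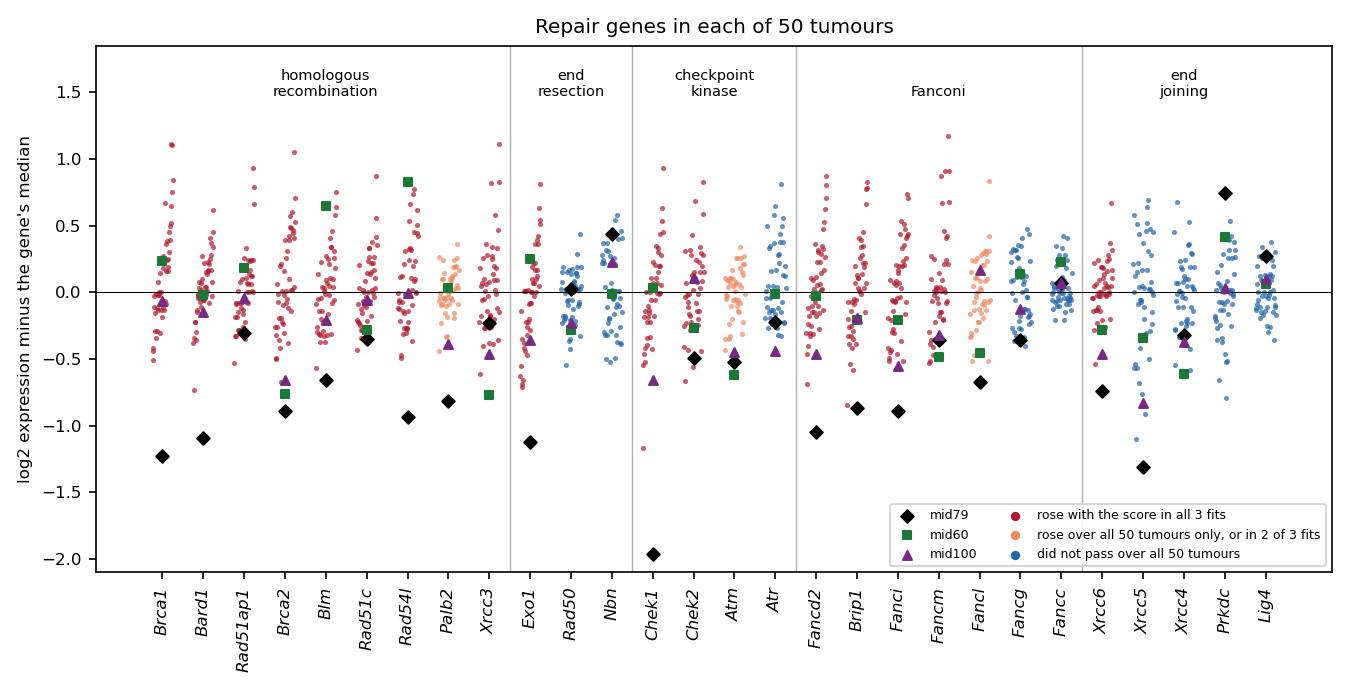
Log2 expression of each repair gene in each of the 50 tumours, minus the median of that gene (y axis), with genes grouped by role and coloured by their relation to the proliferation score. Black diamonds (mid79), green squares (mid60) and purple triangles (mid100) mark the 3 arrays of low correlation. Mid79 is at the bottom for 14 of the 28 genes and at the top for Prkdc.

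The 3 genes of end resection went separate ways. Exo1, the exonuclease that extends the trimmed end, ranged from 5.58 in mid79 over 6.70 to 7.51 in mid85, and its slope was 0.33 (95% interval 0.28 to 0.39, adjusted p = 1.75e-14). Rad50 and Nbn belong to the Mre11 complex, which binds the broken end first and helps to activate Atm. Rad50 varied little, from 7.42 in mid102 over 7.97 to 8.40 in mid47, and its slope of 0.04 did not pass (adjusted p = 0.385). Nbn ranged from 6.46 in mid101 over 6.98 to 7.56 in mid130, with a slope of -0.06 that did not pass either (95% interval -0.14 to 0.03, adjusted p = 0.370). The interval of Exo1 lies above both of theirs.

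Among the kinases the effectors rose and the sensors did not do so in every fit. Chek1, which restrains the cell cycle when forks stall, ranged from 4.91 in mid79 over 6.88 to 7.81 in mid85. It had the strongest relation of the 28 genes, with a slope of 0.40 (95% interval 0.35 to 0.46, adjusted p = 9.61e-17) and 81.3% of its variance along the score. Mid79 and mid54 took the 2 lowest places, at 4.91 and 5.71, and without the 3 arrays the slope was 0.30 (adjusted p = 1.34e-12). Atr, the kinase upstream of Chek1, ranged from 6.64 in mid100 over 7.08 to 7.89 in mid111, and its slope of 0.06 did not pass (95% interval -0.02 to 0.15, adjusted p = 0.302). A dimmer probe set of Atr had a slope of -0.05 ± 0.04 (SE, n = 50), so its probe sets did not have the same sign.

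Chek2, the effector of Atm, ranged from 6.65 in mid33 over 7.32 to 8.14 in mid85, with a slope of 0.16 (adjusted p = 0.00223). Atm, the kinase activated by double-strand breaks, ranged from 7.19 in mid60 over 7.81 to 8.15 in mid130. Its slope was 0.10 over all 50 tumours (adjusted p = 0.00924), 0.06 without mid79 and mid54 (adjusted p = 0.238) and 0.07 without the 3 arrays (adjusted p = 0.0853). Leaving out mid79 alone ended the call on Atm (adjusted p = 0.0965), while on ranks over all 50 tumours Atm passed (adjusted p = 0.0397).

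**Figure D3:**
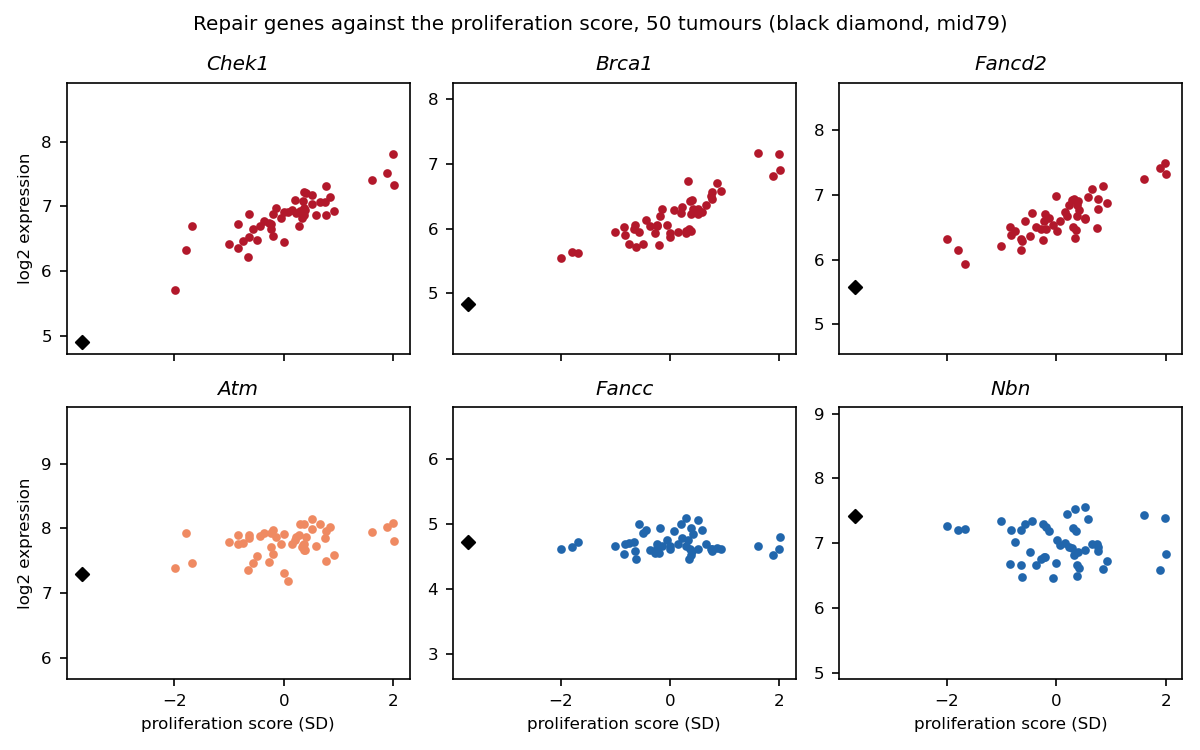
Log2 expression of 6 repair genes (y axis, the same span in each panel) against the proliferation score (x axis, SD), 1 point per tumour, with mid79 as a black diamond. Chek1, Brca1 and Fancd2 climb along the score with slopes of 0.40, 0.37 and 0.32. The call on Atm ended without mid79, and Fancc and Nbn did not pass.

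Of the 7 Fanconi genes, the clamp, the helicase and the anchor rose in every fit. Fancd2 and Fanci form the clamp that is ubiquitinated at a crosslink. Fancd2 ranged from 5.57 in mid79 over 6.62 to 7.49 in mid85, with a slope of 0.32 (adjusted p = 1.28e-14), and Fanci ranged from 4.90 in mid79 over 5.80 to 6.53 in mid7, with a slope of 0.28 (adjusted p = 6.59e-09). Brip1, a helicase that binds Brca1, ranged from 5.09 in mid79 over 5.96 to 6.79 in mid105, with a slope of 0.31 (adjusted p = 1.84e-12). For these 3 genes between 58.4% and 76.9% of the variance lay along the score, and the call held without any 1 of the 50 tumours. Fancm, which anchors the core complex on DNA, ranged from 6.82 in mid54 over 7.35 to 8.52 in mid47, with a slope of 0.25 (adjusted p = 2.40e-05).

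The other core complex genes did not pass in every fit. Fancl, the ubiquitin ligase of the complex, ranged from 5.67 in mid79 over 6.35 to 7.18 in mid47. Its slope of 0.14 (adjusted p = 0.00252) was 0.10 without mid79 and mid54 (adjusted p = 0.0977) and 0.12 without the 3 arrays (adjusted p = 0.0296). Fancg ranged from 5.70 in mid11 over 6.11 to 6.58 in mid87, with a slope of 0.0050 (95% interval -0.07 to 0.08, adjusted p = 0.945). Fancc ranged from 4.46 in mid142 and mid147 over 4.67 to 5.09 in mid99, with a slope of -0.0019 (95% interval -0.05 to 0.04, adjusted p = 0.968). Both intervals lie below that of Fancd2 (0.27 to 0.37). Fancc had the smallest SD of the 28 genes, 0.15, and a mean of 4.71 not far above the limit of 4.09 for a tested gene, where differences are compressed.

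Of the end joining genes 1 of 5 rose in every fit. Xrcc6, which codes for Ku70, ranged from 6.01 in mid79 over 6.75 to 7.42 in mid47, with a slope of 0.15 (95% interval 0.09 to 0.20, adjusted p = 9.75e-05), or 0.10 without the 3 arrays (adjusted p = 0.0103). Xrcc5, which codes for its partner Ku80, had the largest SD of the 28 genes, 0.46, and ranged from 6.61 in mid79 over 7.92 to 8.61 in mid65. Its slope was also 0.15, but with a wider interval of 0.03 to 0.27 that did not pass (adjusted p = 0.0755), and it was 0.05 without the 3 arrays. With the replication genes alone as the score, Xrcc5 passed (0.19, adjusted p = 0.0187).

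Prkdc, the catalytic subunit of the kinase that Ku recruits, was the only repair gene with its highest value in mid79. It ranged from 5.87 in mid99 over 6.67 to 7.41, with a slope of 0.03 (adjusted p = 0.676) that was 0.11 without the 3 arrays (adjusted p = 0.0747). Xrcc4, the scaffold of the ligase, ranged from 5.78 in mid60 over 6.40 to 7.07 in mid82, with a slope of 0.04 (95% interval -0.04 to 0.12, adjusted p = 0.488). Lig4, the ligase itself, ranged from 5.43 in mid128 over 5.79 to 6.17 in mid130, with a slope of -0.02 (95% interval -0.07 to 0.03, adjusted p = 0.635).

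**Figure D4:**
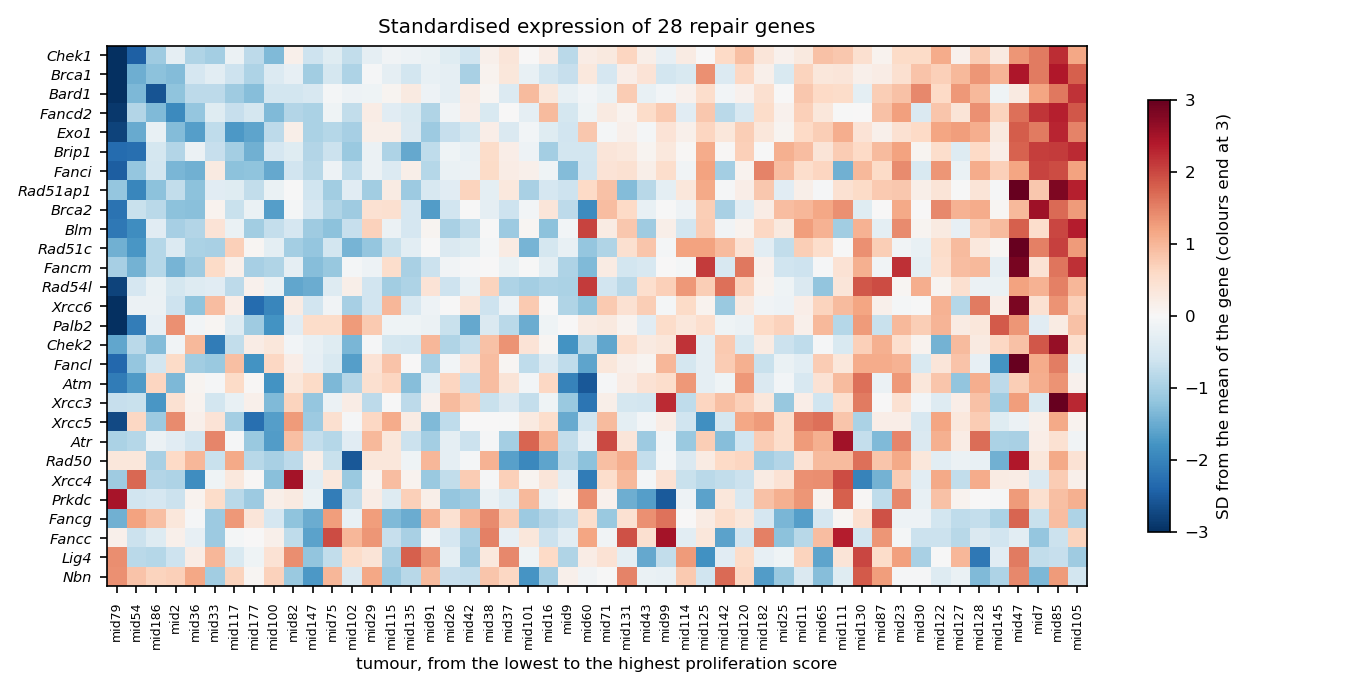
Expression of the 28 repair genes (rows, from the strongest positive to the most negative statistic for proliferation) in the 50 tumours (columns, from the lowest to the highest proliferation score), as SD from the mean of each gene. The upper rows run from blue in mid79 to red in mid47, mid7, mid85 and mid105, and the lower rows show no such gradient.

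Single tumours stood out over many of the genes. Mid79 had the lowest value of 14 of the 28, 11 of them among the 16 that rose in every fit, where 14.4% of all other genes were lowest in mid79. Mid47 had the highest value of 7, namely Brca1, Rad51c, Rad51ap1, Rad50, Fancl, Fancm and Xrcc6, where 4.44% of all other genes were highest in mid47. Of these 7, Brca1, Rad51c, Rad50 and Fancl are 4 of the 5 measured repair genes on chromosome 11, and 14.6% of the other genes of that chromosome were highest in mid47. For Rad51ap1 on chromosome 6, Xrcc6 on chromosome 15 and Fancm on chromosome 12 these shares were 11.4%, 12.7% and 2.86%. Mid85 followed with 5 genes, which included Chek1, Exo1 and Fancd2, but the share of other genes highest in mid85 is not given here. The proliferation score was 1.61 in mid47 and 1.99 in mid85, so both were among the 4 tumours with the highest scores.

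Other genes of the same pathways were taken from lists of 89 names, of which 83 were tested. Of the 83 genes 43 rose with the score and 2 fell, beside the same 11.1% and 7.71% of all genes. By list, 14 of 30 recombination genes rose, 17 of 26 of end resection and break signalling, 6 of 14 Fanconi genes and 6 of 13 of end joining. The strongest were Parpbp, which restrains recombination at forks (slope 0.47), and Polq, the polymerase of an alternative form of end joining (0.27). Next came Tonsl, which recognises newly replicated chromatin (0.22), Gen1, a resolvase of recombination junctions (0.41), and Dna2, a nuclease of resection (0.27). The adjusted p of these 5 lay between 2.73e-16 and 7.27e-11. Those that fell were Parp3, at -0.23 (adjusted p = 0.000598), and Aptx, which removes abortive ligation products, at -0.11 (adjusted p = 0.0481). Neither passed without mid79 and mid54. Without the 3 arrays 36 rose and 1 fell, beside 5.24% and 2.49% of all genes. Parp3 then did not pass (-0.07, adjusted p = 0.201) while Aptx did (-0.14, adjusted p = 0.0261).

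Factors that switch cell cycle genes were measured too. Of the 17 tested, 11 rose and 1 fell. E2f8 had a slope of 0.44 (adjusted p = 5.24e-13), Foxm1, the activator of mitosis genes, 0.32 (adjusted p = 3.01e-16) and Mybl2, another activator of late cell cycle genes, 0.23 (adjusted p = 2.77e-09). E2f1, an activator of S phase genes, had a slope of 0.14 (adjusted p = 0.000107), or 0.16 without the 3 arrays. E2f6 and E2f7 rose with slopes of 0.12 each and adjusted p values of at most 0.0174, and both passed without the 3 arrays. E2f3 had a slope of 0.14 (adjusted p = 0.00189) that was 0.09 without the 3 arrays (adjusted p = 0.0941), and E2f5 one of 0.12 (adjusted p = 0.00287) that was 0.07 without them (adjusted p = 0.124). The calls on E2f3 and E2f5 thus ended without these arrays, while E2f2 and E2f4 did not pass, with slopes of 0.0052 and 0.016. Rb1, the retinoblastoma protein that holds E2F factors back, was the one that fell, at -0.34 (adjusted p = 2.76e-05). Its relatives went other ways, since Rbl1 rose at 0.28 (adjusted p = 2.46e-08) and Rbl2 did not pass (-0.09, adjusted p = 0.0561). Rb1, Rbl1 and Rbl2 are named outside the rule for named genes, after their values were seen.

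Recombination works in S phase and G2, so the next fit asked whether any repair gene lay closer to replication than to mitosis genes. With the proliferation score in the fit, the difference of the replication and mitosis scores called 3 of the 28 genes higher and 0 lower by limma (1 at an unadjusted p under 0.05), where 0.361% of all genes were called higher and 0.167% lower. Exo1 had a slope of 0.11 on the difference (adjusted p = 0.00325), Brca2 0.15 (adjusted p = 0.0224) and Prkdc 0.16 (adjusted p = 0.0340). The call on Exo1 held without any 1 tumour, that on Brca2 ended without mid111 and that on Prkdc without any of 10 tumours. Without the 3 arrays the same 3 genes passed and Chek1 joined them (0.10, adjusted p = 0.0303), where 0.483% of all genes were called higher. On ranks none of these calls held. With the 4 cell type scores in the fit Exo1 did not pass (adjusted p = 0.0712) nor did Brca2 (adjusted p = 0.204), while Prkdc did. The call on Prkdc ended without mid79 and mid54 (adjusted p = 0.0744) and with medians as scores (adjusted p = 0.0598).

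The repair genes were also set against genes of other cells in the biopsy and against p53 targets. With the proliferation score in the fit, the fibroblast score called 0 repair genes higher and 0 lower by limma, with 1 and 2 at an unadjusted p under 0.05, where 9.25% and 6.77% of all genes were called. The score of p53 target genes also called 0 in either direction, with 1 each at an unadjusted p under 0.05, where 0.995% and 0.55% of all genes were called. The score of T and NK cell genes called 0 higher and 5 lower, with 0 and 8 at an unadjusted p under 0.05, where 2.53% and 1.96% of all genes were called. These were Atr at -0.16 (adjusted p = 0.0219), Xrcc5 at -0.22 (0.0231), Xrcc4 at -0.15 (0.0289), Xrcc6 at -0.09 (0.0338) and Brca2 at -0.14 (0.0425). Only Atr kept its call without each of the 50 tumours. Without the 3 arrays Atr passed at -0.15 (adjusted p = 0.0213) and Exo1 at -0.10 (0.0214), where 0.728% of all genes were called lower. Xrcc5 (-0.18, adjusted p = 0.0774), Xrcc4 (-0.11, 0.0972), Xrcc6 (-0.07, 0.0956) and Brca2 (-0.12, 0.0532) did not pass. At an unadjusted p under 0.05, 11 repair genes were lower. The mean of the 6 measured T and NK cell markers lay between 4.80 and 6.14, highest in mid79, close to the lower end of the scale.

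A different part of the spread between tumours ran along chromosomes. For each chromosome a score was made from its genes, leaving out the repair genes, as their mean standardised value minus the median over chromosomes. With the proliferation score in the fit, 8 of the 28 genes rose with the score of their own chromosome and 0 fell, and all 28 slopes were above 0. Over all tested genes of the chromosomes concerned, each set against its own chromosome's score, 14.8% rose, although those genes, unlike the repair genes, are part of the score. DNA copy number was not measured, and neither was the inherited strain of each segment.

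The clearest cases lay on chromosome 4, whose score ranged from -0.56 in mid105 to 0.65 in mid87. Over the genes of that chromosome 53.1% rose with its score, against 6.91% of all genes. Rad54l had a slope of 0.24 per SD of the chromosome 4 score (adjusted p = 1.33e-09), Nbn one of 0.24 (adjusted p = 2.70e-08) and Fancg one of 0.20 (adjusted p = 2.87e-08). These are all 3 measured repair genes of chromosome 4. The score was under -0.3 in 19 tumours, so it also sets a group of tumours apart. With the slope on proliferation taken out, the median of Nbn was -0.31 in these 19 and 0.17 in the other 31. The medians were -0.25 and 0.17 for Rad54l and -0.24 and 0.13 for Fancg. Nbn and Fancg, which did not pass for proliferation, had 3.72% and 0.04% of their variance along the proliferation score alone, and 59.1% and 58.0% with the chromosome 4 score added. For Rad54l these shares were 37.8% and 77.1%.

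Fancm, on chromosome 12, had a slope of 0.25 on the score of that chromosome (adjusted p = 1.65e-07), where 30.2% of the chromosome's genes and 1.12% of all genes rose. Its share of variance was 40.6% along proliferation alone and 76.0% with the chromosome 12 score. That score was above 0.5 in 7 tumours, mid33, mid23, mid47, mid105, mid120, mid125 and mid127, and low in the others, so the slope rests on few points. On ranks the call on Fancm did not hold (adjusted p = 0.561). Xrcc3, also on chromosome 12, did not pass (0.10, adjusted p = 0.828). With the chromosome 12 score in the fit, the slope of Xrcc3 on proliferation was 0.13 (adjusted p = 0.0552).

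Prkdc, on chromosome 16, had a slope of 0.17 on that chromosome's score (adjusted p = 0.00692), where 17.7% of the chromosome's genes and 0.583% of all genes rose. Its share of variance was 1.05% along proliferation alone and 32.0% with the chromosome 16 score. That score was under -0.4 in 5 tumours, mid26, mid43, mid99, mid120 and mid125, and the call ended without mid99 (adjusted p = 0.0583). The calls on Rad54l, Nbn, Fancg, Fancm and Prkdc held without the 3 arrays and with the 4 cell type scores in the fit. Atm and Atr also rose with the chromosome 9 score, where 16.6% of that chromosome's genes and 5.76% of all genes rose, with slopes of 0.09 and 0.13, but neither passed without the 3 arrays (0.06 and 0.12, adjusted p = 0.291 and 0.108). Rad51ap1 on chromosome 6 passed narrowly (0.10, adjusted p = 0.0494), where 0.992% of that chromosome's genes and 0.239% of all genes rose. It kept its call in 19 of 50 fits that leave out 1 tumour, but not without the 3 arrays (0.08, adjusted p = 0.356).

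Brca1 and its neighbours in this list on chromosome 11 did not pass. The score of that chromosome stood at 0.88 in mid47 and at -0.47 in mid16, with the other tumours near 0. Of the chromosome's genes 0.889% rose with it, against 0.1% of all genes. Brca1 had a slope of 0.06 (adjusted p = 0.347) and Rad51c one of 0.08 (adjusted p = 0.210).

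**Figure D5:**
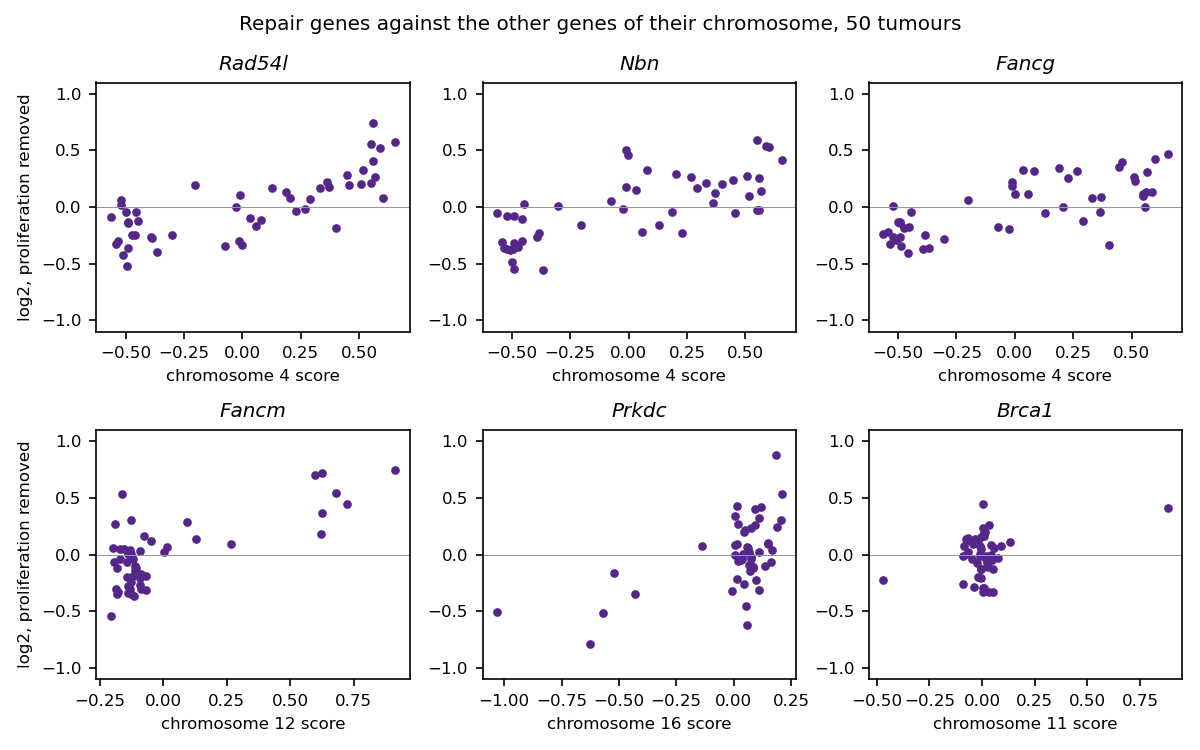
Log2 expression of 6 repair genes after the slope on proliferation was taken out (y axis) against the score of the other genes of their chromosome (x axis, mean standardised value), 1 point per tumour. For Rad54l, Nbn and Fancg, the 19 tumours with a chromosome 4 score under -0.3 have a lower median than the other 31. Fancm and Prkdc have 7 and 5 tumours apart at one end of the score of their chromosome. Brca1 has 1 tumour at each end (mid47 and mid16) and did not pass.

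The next fits asked whether genes whose proteins work as a pair share RNA levels beyond proliferation. Of 16 pairs listed, 13 had both genes measured. In each, the second gene was fitted on the standardised first gene beside the proliferation score. The slopes are thus log2 per SD of the first gene. In 2 pairs the second gene rose with the first, and in 0 pairs did it fall. Fanci rose with Fancd2 at 0.30 log2 per SD of Fancd2 (adjusted p = 0.0139). It ranked 1st by its statistic among 18044 genes, of which 0.0333% were called. Without the 3 arrays the slope was 0.26 (adjusted p = 0.0529), and the call also ended without mid30 or mid142, on ranks, and with the 4 cell type scores in the fit (adjusted p = 0.240). Xrcc6 rose with Xrcc5 at 0.08 (adjusted p = 0.0283), where 8.47% of all genes were called, and did not pass without the 3 arrays (0.06, adjusted p = 0.149). Nbn ranked 6th of 18044 for Rad50 without passing (0.16, adjusted p = 0.139). Bard1 on Brca1 had a slope of -0.01 that did not pass and ranked 11050th of 18044. The proliferation score held 80.5% of the variance of Brca1 and 79.2% of that of Bard1, which left little for this fit. Chek1 on Atr (0.06, adjusted p = 0.176), Chek2 on Atm (0.07, adjusted p = 0.285), Lig4 on Xrcc4 (-0.03, adjusted p = 0.529) and Prkdc on Xrcc5 (0.03, adjusted p = 0.767) did not pass either. Without the 3 arrays the slope of Prkdc on Xrcc5 was 0.09 (adjusted p = 0.136). Brip1 on Brca1 (0.14, rank 319), Exo1 on Blm (0.09, rank 641) and Xrcc3 on Rad51c (0.14, rank 1233) were positive without passing. Palb2 on Brca2 (-0.02) and Fancc on Fancl (-0.0017) did not pass.

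A gene lost in some tumours and kept in others could show 2 levels. A mixture of 2 normal components was set against a single one, and called where the BIC differed by over 10. By mclust 0 of the 28 repair genes were called, where 8.22% of all tested genes were. The highest differences were 7.98 for Chek1 and 6.56 for Fancc, and that of Chek1 was -7.71 without the 3 arrays. For Fancc it was 8.41 without them.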

How the data were processed

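Each of the 50 samples is 1 array of a separate tumour biopsy, per the labels from Trizol RNA. The authors deposited log2 values to 2 decimals for 34472 probe sets, summarised with RMA, per the submitters' processing notes, which also name the build mm8 without its role. For RMA no version is given in the sources used here. RMA brings all arrays to nearly 1 distribution, which hides any shift common to most genes. Quantiles of the deposited values differed between arrays by at most 0.17. The number of arrays limits the precision, and array signals carry no count of molecules.

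In the platform annotation 23521 probe sets have 1 gene, 1814 have several and 9137 have none. Symbols and chromosomes came from a RefSeq table, which 23328 probe sets matched. Genes whose mean lay below the 25th percentile, 4.09 log2, were not tested. Each of the 18045 tested genes was regressed with lmFit and a trended eBayes in limma 3.58.1, with Benjamini-Hochberg adjustment and calls under 0.05, and mixtures used mclust 6.1.1 in R 4.3.3. Figures and motif searches used Python 3.11.15, pandas 2.3.3, numpy 2.4.6 and matplotlib 3.10.9. Promoters are the 250 bases before the RefSeq start, cut from entries for 24 of the 32 repair genes.

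The proliferation fit was tested on simulated data of 18045 genes. Of 100 genes planted at a slope of 0.2 it found 77, of 100 planted at 0.5 it found 99, and 6 further calls were false. Second-term fits without a planted effect made 0 calls, and all 100 genes simulated with levels 5 SD apart were found by the mixture. Second-term fits on the chromosome, cell type and partner values of the tumours themselves were not tested in this way. A gap under 5 SD was not tested either.

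The repair genes, the other gene lists and the pairs were chosen with earlier results of these data known. Genes are named by rule: all measured repair genes, of the other pathway genes the 5 highest and the 5 lowest by the proliferation statistic among called genes that keep their sign without the 2 farthest tumours, all measured E2F, MYB and FOXM1 factors, the partners in pairs, and promoters of the 3 repair genes with the strongest and the 3 with the weakest statistic. The alternatives were the filter, the probe set, another quantile normalization, ranks, tumours or arrays left out, medians as scores, array weights, the replication or the mitosis genes alone as the score, and cell type scores. Cell type scores in the second-term fits, and leaving out each of the 50 tumours, were added after seeing the data.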

Additional observations from a re-analysis of the deposited data

How the results depend on the processing

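The count of 19 repair genes higher with proliferation lay between 16 and 20 in the 13 alternatives and between 17 and 20 without any 1 tumour, and 0 fell in any of them. Among genes that did not pass, the sign turned without a call for Fancc (0.00042 after another quantile normalization, 0.00048 without the 3 arrays, 0.0012 with mitosis genes as the score) and for Fancg (-0.012 without the 2 farthest tumours, -0.029 without the 3 arrays, -0.033 with array weights, -0.022 with replication genes as the score, -0.015 with cell type scores). It also turned for Prkdc (-0.014 with mitosis genes) and Xrcc4 (-0.026 with cell type scores).

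The 2 other pathway genes that fell became 1 with no filter, on ranks, without the 3 arrays, with array weights and with mitosis genes, and 0 without the 2 farthest tumours (1 to 2 without any 1 tumour). The 43 that rose lay between 34 and 44, and between 37 and 44 without any 1 tumour. The 3 genes nearer to replication became 0 on ranks and 1 with cell type scores (1 to 4 without any 1 tumour, lowest without mid111). For fibroblast genes 1 lower call appeared after another quantile normalization. The 5 lower calls with T and NK cell genes became 3 on ranks, 3 without the 2 farthest tumours and 2 without the 3 arrays (1 to 5 without any 1 tumour). For p53 targets 1 higher call appeared without mid87 or mid91 (range 0 to 1). The 8 genes that rose with their chromosome became 5 on ranks, without the 3 arrays and with cell type scores (6 to 8 without any 1 tumour). The 2 pairs became 0 on ranks, without the 3 arrays and with cell type scores, and 1 without the 2 farthest tumours (1 to 3 without any 1 tumour). The cause of these changes was not tested. No paired analysis was possible because all tumours form 1 group.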
